A study of Mus musculus with 15 samples.

Results

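The collagen genes were taken as the rows of the count table whose symbol consists of Col, digits, a and digits, which gave 44 of the 56832 genes. They were measured by bulk RNA-sequencing of mesenchymal stromal cell (MSC) cultures grown from the long bone marrow of 16-week-old mice. TauT, the taurine transporter, is encoded by Slc6a6, and the TauT KO mice (TauT-/-, C57BL/6J background) are a global knockout, so the deletion was not limited to MSCs. TauT+/+ mice were the WT controls. There were 7 WT libraries (4 labelled male, 3 labelled female) and 8 KO libraries (4 labelled male, 4 labelled female). All cultures of both genotypes were grown on dishes coated with type I collagen, in a medium without ascorbic acid, at low oxygen, and were enriched by removing CD45+, Ter119+ and CD31+ cells or by sorting. The labels do not say that each library came from a separate animal, so the p-values measure only the spread between these libraries, which may be technical.

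Collagens are trimers of chains that wind into a triple helix, and in the helical part glycine must recur at a fixed spacing because only its side chain fits inside the coil. Fibrillar collagens form the banded fibrils of bone, skin and tendon, basement membrane (type IV) collagens form sheets, and FACIT collagens sit on the surface of fibrils. Beaded filament (type VI) collagens form microfibrils around cells, and transmembrane collagens are anchored in the cell membrane. The chains of 1 trimer often come from several genes, and ascorbic acid is a cofactor of the enzymes that hydroxylate the prolines of the helix.

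The members fell into 11 fibrillar, 6 basement membrane, 9 FACIT, 6 beaded filament and 4 transmembrane genes. Another 2 were multiplexins (Col15a1, Col18a1), 3 were short-chain network collagens (Col8a1, Col8a2, Col10a1), and 3 were put in no class (Col7a1, Col26a1, Col28a1). The classes differ in the sequence that encodes the helix, and short stretches are shown for the most abundant fibrillar genes, for the main basement membrane pair and for the only member that passed the test between genotypes. In the canonical transcripts of GENCODE M39 on GRCm39, the fibrillar genes had 625 internal coding exons, of which 305 (48.8%) were exactly 54 bases long and 525 (84.0%) a multiple of 9 bases, the length of 1 glycine repeat. In these stretches, read 5′ to 3′ on the coding strand, capitals mark the glycine codons (GGN). The first 3 are whole exons of 54 bases. They lie at chr11:94830730-94830783 (plus strand, coding exon 8 of 51 of Col1a1), chr6:4515481-4515534 (plus strand, coding exon 8 of 52 of Col1a2) and chr1:45364520-45364573 (plus strand, coding exon 6 of 51 of Col3a1).
Col1a1: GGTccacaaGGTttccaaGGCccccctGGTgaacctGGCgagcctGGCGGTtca
Col1a2: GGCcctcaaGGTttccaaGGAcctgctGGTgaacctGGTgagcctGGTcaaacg
Col3a1: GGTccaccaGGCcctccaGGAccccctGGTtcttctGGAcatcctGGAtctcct

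In these fibrillar exons the glycine codon returned every 9 bases without a gap, and Col1a1 had 1 more glycine codon beside a regular one. The longest unbroken run of such repeats was 338 in Col1a1, 339 in Col1a2 and 344 in Col3a1, and over the 11 fibrillar genes it ranged from 216 to 344. In the 6 basement membrane genes the helix was broken into 16 to 24 runs of at least 5 repeats, and the longest held 39 to 66 repeats. The Col4a1 stretch (chr8:11285141-11285200, minus strand, coding exon 21 of 52) and the Col4a2 stretch (chr8:11465964-11466029, plus strand, coding exon 19 of 47) each show 1 such break in the middle.
Col4a1: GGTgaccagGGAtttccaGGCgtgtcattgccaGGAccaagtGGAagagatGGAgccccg
Col4a2: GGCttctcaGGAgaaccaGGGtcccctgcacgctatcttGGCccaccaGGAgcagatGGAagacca

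Col8a1 and the other short-chain genes had only 2 coding exons, and the longest run of repeats was 61 in Col8a1, 60 in Col8a2 and 61 in Col10a1. The start of the Col8a1 run lies at chr16:57448402-57448455 (minus strand, coding exon 2 of 2), and capitals mark glycine codons as above.
Col8a1: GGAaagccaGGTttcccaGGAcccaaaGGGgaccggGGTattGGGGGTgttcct

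This stretch also holds 1 glycine codon directly before a regular one. Of the beaded filament genes, Col6a3 had the smallest share of its codons in repeats, 9.75% against 28.1% in Col6a1 and 31.9% in Col6a2. Its coding sequence is longer, with 2677 codons against 1025 and 1034, and it held 87 repeats against 96 and 110. In the FACIT Col12a1 the share was 7.63%.

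Total counts were 69764291 to 101575071 in the male-labelled and 12761107 to 20781070 in the female-labelled libraries, so depth and sex label cannot be told apart, while both depths hold both genotypes. KO male 1 and KO female 1, and likewise WT male 1 and WT female 1, were closer to each other than any other of the 105 pairs. The spread of the log2 ratio was 0.102 and 0.114, above counting error (0.0589 and 0.0618). It was 0.261 for the next pair, WT male 3 and KO male 3, which differ in genotype. The sex-linked genes Xist and Ddx3y went against the label in WT male 1, KO male 1 and WT female 3, and results are also given without these libraries. Log2 fold changes are KO against WT with their standard error (SE). Slc6a6 itself had 592 to 2591 counts per unit of scaled library size (CPM) in WT and 401 to 1521 CPM in KO libraries, and the genotypes overlapped (log2 fold change −0.97, SE 0.36, edgeR adjusted p = 0.125), though it passed with voom (−1.27, voom adjusted p = 0.0246), and libraries are named by their labels. Of the 10 stromal markers, Pdgfrb had 446 to 892 CPM in WT and 256 to 771 CPM in KO. Lepr was near the floor, with 0.0134 to 1.95 CPM in WT and 0 to 2.35 CPM in KO. The 10 markers together had 2224 to 25615 CPM in WT (median 14602) and 677 to 15556 CPM in KO (median 3332). The most abundant was Cxcl12, with a mean of 12120 CPM in WT and 4437 CPM in KO. The log2 fold change was below 0 in 8 of 10, and none passed the edgeR threshold. DESeq2 called Pdgfra and Vcam1 lower (DESeq2 adjusted p = 0.0342 and 0.00442, background 6.31%). The 12 macrophage markers summed to 1268 to 8978 CPM in WT (median 7423) and 5951 to 18743 CPM in KO (median 13928), and Ptprc, which encodes CD45, had 27.9 to 179 CPM in WT and 114 to 370 CPM in KO.

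Collagen transcripts made up 4.69 ± 0.65% of all gene counts in WT (SD, n = 7) and 3.36 ± 1.66% in KO (SD, n = 8). The WT libraries lay between 3.97% (WT female 1) and 5.41% (WT male 4), while the KO libraries ran from 1.27% in KO female 4 to 6.43% in KO male 3, so that the KO range enclosed the WT range. Apart from KO male 2 (4.95%) and KO male 3, the KO libraries had at most 3.87% (KO female 3), below every WT library. The difference of the means was −1.33 percentage points, and it was −0.681 points in male-labelled and −1.96 points in female-labelled libraries. It was −1.38 or −1.37 points with male 1 or female 1 of both near-identical pairs dropped, and −1.3 points without the 3 libraries with discordant sex-linked genes. Fibrillar collagens took 52.5% to 84.0% of the collagen counts (median 71.2%), and type I collagen alone, Col1a1 with Col1a2, took 26.2% to 54.2% (median 40.7%). Beaded filament genes took a median of 13.2%, FACIT genes 6.99% and basement membrane genes 5.55%. Transmembrane collagens took at most 0.0559%. In bulk RNA, fewer cells of a type and less RNA per cell cannot be told apart.

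**Figure D1:**
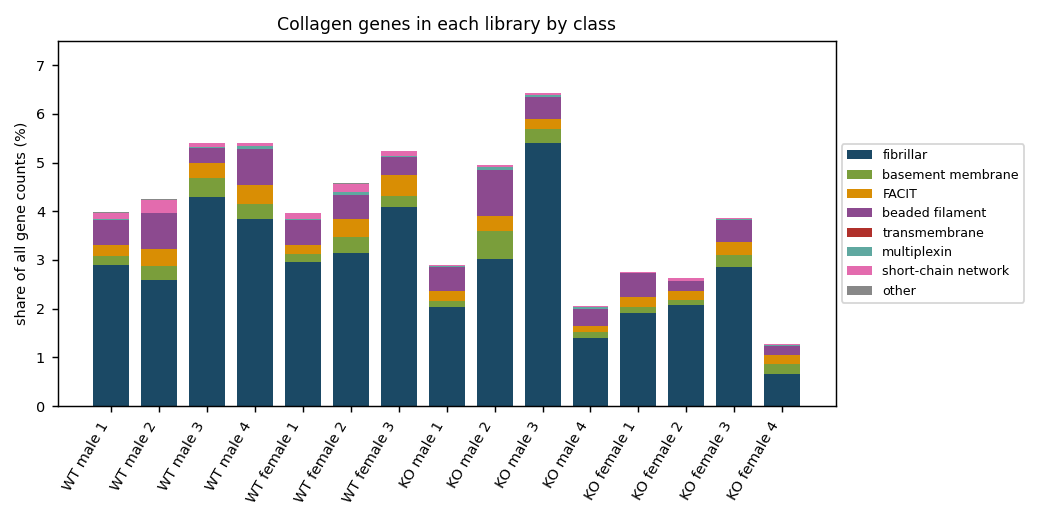
Share of all gene counts (%) that fell on collagen genes in each of the 15 libraries, stacked by collagen class. The bars of WT libraries end between 3.97% and 5.41% and those of KO libraries between 1.27% (KO female 4) and 6.43% (KO male 3), and the fibrillar class is the largest part of every bar.

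Per kilobase of exon (RPKM), Col1a1 was the most abundant collagen, with a mean of 1569 RPKM, rank 11 of the 52379 genes that had an exon length. Col3a1, which forms type III collagen on its own, followed with 537 RPKM and Col1a2 with 511 RPKM, on exon lengths that take in all annotated transcripts. Next came Col6a1 (361 RPKM), the type V chains Col5a1 (311 RPKM) and Col5a2 (249 RPKM), the type IV chains Col4a1 (182 RPKM) and Col4a2 (143 RPKM), Col6a2 (138 RPKM), Col12a1 (136 RPKM) and Col6a3 (102 RPKM). From Col3a1 down to Col6a3, neighbours in this order had WT means that differed by less than the larger of their SDs, as with 674 ± 209 RPKM for Col3a1 and 567 ± 221 RPKM for Col1a2 (SD, n = 7), except Col5a2 (286 ± 74.7 RPKM) and Col4a1 (204 ± 64.4 RPKM). Col1a1 stood above them at 1962 ± 470 RPKM in WT. Over all 44 members, 32 had a mean of at least 1 CPM.

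Among the FACIT genes, Col12a1 was followed by Col16a1 (37.8 RPKM) and Col14a1 (32.1 RPKM), whose order was not resolved, since in WT they had 42.4 ± 12.9 and 42.8 ± 74.6 RPKM (SD, n = 7), and the others were at or below 1.3 RPKM. Of the type IV genes, Col4a5 had 8.2 RPKM and Col4a6 0.24 RPKM, and Col4a3 and Col4a4, the chains of the glomerular basement membrane of the kidney, had 115 and 59 counts in all libraries together. Transmembrane collagens were all scarce: Col23a1 had 0.36 RPKM, Col17a1, a component of hemidesmosomes in skin, 0.0511 RPKM and Col25a1 0.00246 RPKM, which was 26 counts in all, while Col13a1 had 6 counts in all. Col9a1, a cartilage FACIT, had 0 counts in every library, which allows up to 0.0295 to 0.235 CPM (3 counts) depending on depth. Of the 44 members, 33 had a count in every library.

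**Figure D2:**
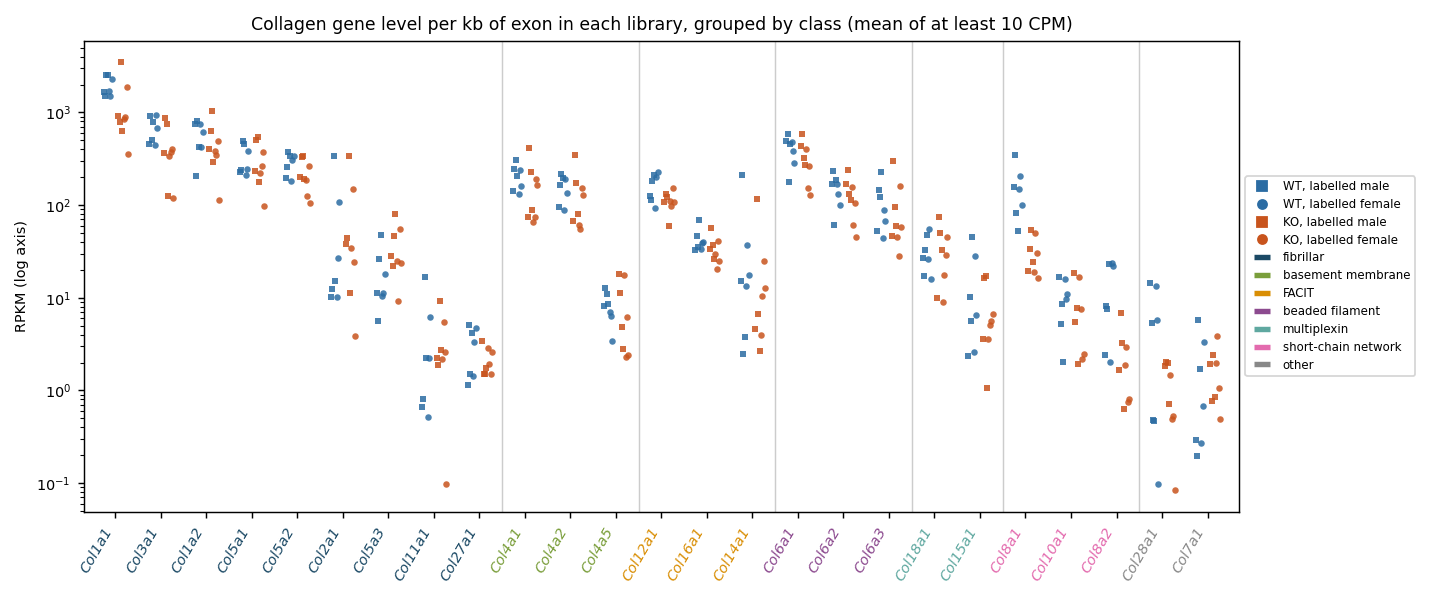
Level in RPKM, CPM per kilobase of exon (log axis), of the collagen genes with a mean of at least 10 CPM in each library, ordered by class and by mean. Squares are male-labelled and circles female-labelled libraries, blue is WT and orange KO. Col1a1 stands highest, and Col2a1, Col11a1, Col14a1 and Col28a1 spread over the widest ranges.

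The members varied more between libraries of the same group than most genes did. The standard deviation of log2 CPM within groups (with 0.5 CPM added) had a median of 0.83 over the 35 members tested (range 0.27 to 2.12). Over all 17204 genes tested the median was 0.33 and the 90th percentile 0.91. It was above 1 in 11 members. Members and genes were not matched for level, and the added 0.5 CPM lowers the spread of scarce genes. Col2a1, the main collagen of cartilage, had 3151 CPM in WT male 3 and 3179 CPM in KO male 3, 1403 CPM in KO female 2 and 1010 CPM in WT female 3, and 35.9 to 417 CPM in the other libraries. The cartilage markers Cnmd and Snorc had 0 CPM in every library, Hapln1 at most 0.0814 CPM, Matn1 at most 0.535 CPM, Matn3 at most 0.489 CPM and Acan at most 6.84 CPM. The other 2 of the 8 cartilage markers, the transcription factors Sox9 and Sox5, were detected, Sox9 at 7.14 to 53.1 CPM in WT and 3.96 to 19.4 CPM in KO and Sox5 at 3.24 to 12.5 CPM in WT and 1.39 to 7.67 CPM in KO. The part of such cells in the Col2a1 levels was not tested. Col11a1, a partner of type II collagen in cartilage fibrils, was also highest in WT male 3 (213 CPM) and KO male 3 (119 CPM). KO female 4 had the lowest level of 13 and KO male 4 of 7 of the 35 tested members.

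The main question was which collagen genes differ between the TauT KO and WT MSC cultures. Both held macrophage transcripts, with medians of the summed markers of 7423 CPM in WT and 13928 CPM in KO. The summed stromal markers had medians of 14602 CPM in WT and 3332 CPM in KO. Of the 44 members, 35 passed the filter on low counts, and the 9 left out (Col4a3, Col4a4, Col6a5, Col6a6, Col9a1, Col13a1, Col19a1, Col25a1 and Col26a1) had means of at most 0.309 CPM. Only Col8a1 passed the edgeR threshold of an adjusted p of 0.05, and it was lower in KO. That is 1 member lower, where 0.75% of all 17204 genes were called lower, and 0 members higher, where 0.546% were called higher. At an unadjusted p under 0.05, 6 members were lower (background 13.0%) and 2 were higher (background 10.6%). DESeq2 called 5 members lower (Col8a1, Col8a2, Col9a2, Col24a1 and Col28a1, background 6.31%) and 1 higher (Col23a1, background 5.28%). In 27 of the 35 members the log2 fold change was below 0, against 51.7% of all genes, with a median of −0.32 against −0.02 over all genes. The members were measured in the same libraries, so their signs are not independent. Their median was −0.13 in male-labelled and −0.5 in female-labelled libraries, against −0.01 and 0.03 over all genes. In no member did the genotypes separate without overlap, against 0.436% of all genes with every KO library below every WT library and 0.692% with every KO library above.

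Col8a1 encodes a chain of type VIII collagen, a short-chain collagen known from the subendothelium of vessels and from Descemet's membrane of the cornea. It lies on chromosome 16 of GRCm39 from 57444621 to 57575100. The male-labelled WT libraries 1 to 4 had 1215, 2741, 637 and 417 CPM and the female-labelled WT libraries 1 to 3 had 1163, 1629 and 791 CPM. The male-labelled KO libraries had 151, 261, 423 and 190 CPM and the female-labelled KO libraries 148, 390, 237 and 127 CPM. All 8 KO libraries were below the WT median, and 7 were below every WT library, since KO male 3 was just above WT male 4. The fall was 5.07-fold (log2 fold change −2.34, SE 0.40, edgeR adjusted p = 0.0239). It was −2.29 in male-labelled and −2.38 in female-labelled libraries. The call did not hold with the macrophage markers as a covariate (log2 fold change −1.99, edgeR adjusted p = 0.181), nor in 13 libraries, with male 1 or female 1 of both near-identical pairs dropped (log2 fold change −2.28 and −2.26, edgeR adjusted p = 0.0703 and 0.0941) or in the 12 libraries whose sex-linked genes fitted the label (−2.34, edgeR adjusted p = 0.137). It was also lost without WT female 1 (edgeR adjusted p = 0.0716), WT female 2 (0.0796), KO male 4 (0.0508) or KO female 3 (0.0531), with log2 fold changes from −2.35 to −2.21 in these fits. The macrophage markers were higher in KO, with 11 of 12 above 0 and Cd68 past the edgeR threshold (log2 fold change 1.46, edgeR adjusted p = 0.0445). The covariate thus went with genotype, and the fit with it cannot tell them apart. The part of macrophages in the result was not tested.

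Col8a2, on chromosome 4 from 126180559 to 126208123, encodes the other type VIII chain. Its level was 10.3 to 120 CPM in WT (median 41.5) and 3.15 to 34.8 CPM in KO (median 8.99), and all 8 KO libraries were below the WT median. The log2 fold change was −2.47 (SE 0.66, edgeR adjusted p = 0.0664), which did not pass. It passed without WT male 3 (edgeR adjusted p = 0.0417) and without KO male 2 (0.0473). Col10a1, which marks hypertrophic cartilage and shares the short-chain fold, had 6.4 to 52.6 CPM in WT and 6.1 to 58.3 CPM in KO, with a log2 fold change of −0.32 (SE 0.55).

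**Figure D3:**
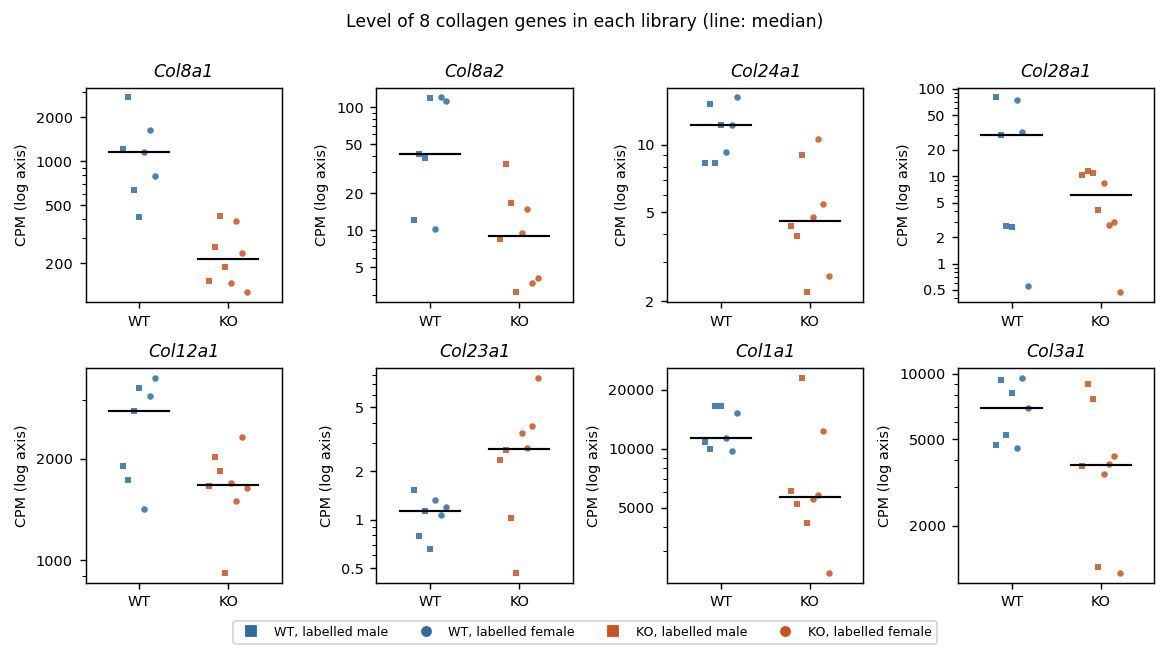
Level in CPM (log axis, a separate scale in each panel) of 8 collagen genes in each library, with WT in blue, KO in orange, squares for male-labelled and circles for female-labelled libraries and a line at the median. Col8a1 has 7 of 8 KO libraries below every WT library, while the genotypes of the other 7 genes share more of their range.

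None of the 11 fibrillar genes passed the edgeR threshold, and their median log2 fold change was −0.41 (−0.27 without WT female 3), with 9 below 0. Col1a1, on chromosome 11 from 94827050 to 94843868, had 9769 to 16589 CPM in WT (median 11316) and 2323 to 22911 CPM in KO (median 5694). In 6 of the 8 KO libraries it was below every WT library, and in KO male 3 it was above all of them. Its log2 fold change was −0.68 (SE 0.41, edgeR adjusted p = 0.328), and −1.14 without KO male 3. Col3a1 had 4542 to 9542 CPM in WT and 1212 to 8963 CPM in KO, again with 6 of 8 KO libraries below every WT library (log2 fold change −0.72, SE 0.39, edgeR adjusted p = 0.285). Col1a2, the second chain of type I collagen, had 2624 to 10117 CPM in WT and 1433 to 13074 CPM in KO (log2 fold change −0.33, SE 0.39).

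The type V chains control the diameter of type I fibrils. Col5a1 had 1824 to 4248 CPM in WT and 864 to 4696 CPM in KO (log2 fold change −0.08, SE 0.32), and Col5a2 had 2057 to 4177 CPM in WT and 1175 to 3829 CPM in KO (log2 fold change −0.41, SE 0.26). The remaining type V chain, Col5a3, pointed the other way, with 38.5 to 324 CPM in WT and 63.5 to 549 CPM in KO (log2 fold change 1.02, SE 0.46, edgeR adjusted p = 0.194). Col24a1, a less abundant fibrillar gene on chromosome 3 from 144998233 to 145257766, had 8.27 to 16.3 CPM in WT and 2.2 to 10.6 CPM in KO. In 6 of 8 KO libraries it was below every WT library, with a log2 fold change of −1.14 (SE 0.32, edgeR adjusted p = 0.0725), and without WT male 3 it passed (edgeR adjusted p = 0.0456).

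All 7 FACIT genes tested had a log2 fold change below 0, with a median of −0.58, and none passed the edgeR threshold. Col12a1, which binds type I fibrils, had 1423 to 3481 CPM in WT (median 2769) and 916 to 2320 CPM in KO (median 1678). All 8 KO libraries were below the WT median but only 1 was below every WT library, and the log2 fold change was −0.58 (SE 0.23, edgeR adjusted p = 0.154). Col16a1 differed by −0.31 (SE 0.20), with 237 to 502 CPM in WT and 149 to 409 CPM in KO. Col14a1 had its highest level in WT male 2 (1473 CPM) and in KO male 2 (818 CPM) and 17.3 to 262 CPM in the others, so its log2 fold change of −0.82 had a SE of 0.96. The value was 0.57 without WT male 2 and −2.23 without KO male 2, so its sign rested on those libraries. The cartilage chain Col9a2 was near the detection limit, at 0.0852 to 1.98 CPM in WT and 0 to 0.417 CPM in KO (log2 fold change −2.19, SE 0.71, edgeR adjusted p = 0.0953), and it passed without WT male 3.

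The basement membrane genes had a median log2 fold change of −0.07 over the 4 tested, 2 of them below 0, and it ranged from −0.27 (without WT female 1) to 0.08 (without KO male 4) with a library left out, so it had no stable sign. Col4a1 and Col4a2 encode the common type IV trimer, and they lie head to head on chromosome 8, where their annotated 5′ ends overlap by 356 bases on opposite strands. The library protocol describes no step that keeps the strand, so reads from that overlap cannot be assigned with certainty. Col4a1 had 987 to 2305 CPM in WT and 494 to 3110 CPM in KO (log2 fold change −0.32, SE 0.37), and Col4a2 had 640 to 1535 CPM in WT and 400 to 2467 CPM in KO (log2 fold change −0.22, SE 0.36). The same 4 of 8 KO libraries (KO male 1, KO male 4, KO female 1 and KO female 2) were below every WT library for both genes, and KO male 2 was the highest of all libraries for both. With a library left out, Col4a1 ranged from −0.64 (without KO male 2) to −0.15 (without WT female 2) and Col4a2 from −0.56 to −0.04 (without the same libraries). Col4a5 on chromosome X had 32.1 to 120 CPM in WT and 21.2 to 170 CPM in KO (log2 fold change 0.08, SE 0.46). The scarce Col4a6 had 0.379 to 2.3 CPM in WT and 0.0521 to 8.5 CPM in KO (log2 fold change 1.27, SE 0.90, edgeR adjusted p = 0.41). It was highest in the near-identical libraries KO male 1 (8.5 CPM) and KO female 1 (8.23 CPM). The endothelial markers Pecam1, Cdh5, Emcn, Tie1, Cldn5 and Tek were at most 6.46 CPM in any library. Kdr had 0.565 to 5.21 CPM in WT and 4.62 to 35.0 CPM in KO, and Flt1 had 0.48 to 12.5 CPM in WT and 0.366 to 120 CPM in KO. DESeq2 called Kdr and Flt1 higher in KO (DESeq2 adjusted p = 0.000833 and 0.0324, background 5.28%). Neither passed the edgeR threshold (log2 fold change 2.14 and 3.11, edgeR adjusted p = 0.0561 and 0.169).

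The beaded filament genes had a median log2 fold change of −0.13 over the 4 tested, which ranged from −0.42 (without KO male 2) to −0.01 (without KO female 2) with a library left out. Col6a1 had 1046 to 3442 CPM in WT and 755 to 3392 CPM in KO (log2 fold change −0.37, SE 0.31), Col6a2 had 668 to 2587 CPM in WT and 499 to 2659 CPM in KO (−0.24, SE 0.32), and Col6a3 had 536 to 2740 CPM in WT and 342 to 3577 CPM in KO (−0.01, SE 0.46). Col6a3 ranged from −0.45 (without KO male 2) to 0.18 (without WT male 4). The less common chains were scarce: Col6a4 had at most 9.88 CPM, and Col6a5 reached 2.11 and 2.25 CPM in the near-identical libraries KO male 1 and KO female 1 and at most 0.106 CPM elsewhere.

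Of the transmembrane genes 2 were tested. Col23a1, on chromosome 11 from 51180566 to 51474745, had 0.659 to 1.53 CPM in WT (median 1.13) and 0.466 to 7.61 CPM in KO (median 2.76), and 6 of 8 KO libraries were above every WT library. The log2 fold change was 1.21 (SE 0.41, edgeR adjusted p = 0.105). Col17a1 had 0.0807 to 0.468 CPM in WT and 0.0521 to 0.535 CPM in KO (log2 fold change 0.03, SE 0.44). Among the genes in no class, Col28a1 had 0.553 to 80.3 CPM in WT and 0.469 to 11.5 CPM in KO (log2 fold change −2.41, SE 0.90, edgeR adjusted p = 0.131). In WT it was highest in the near-identical libraries WT male 1 (80.3 CPM) and WT female 1 (74.9 CPM) and at most 2.69 CPM in WT male 3, WT male 4 and WT female 3. Col7a1, which forms the anchoring fibrils of skin, differed by −0.06 (SE 0.73).

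**Figure D4:**
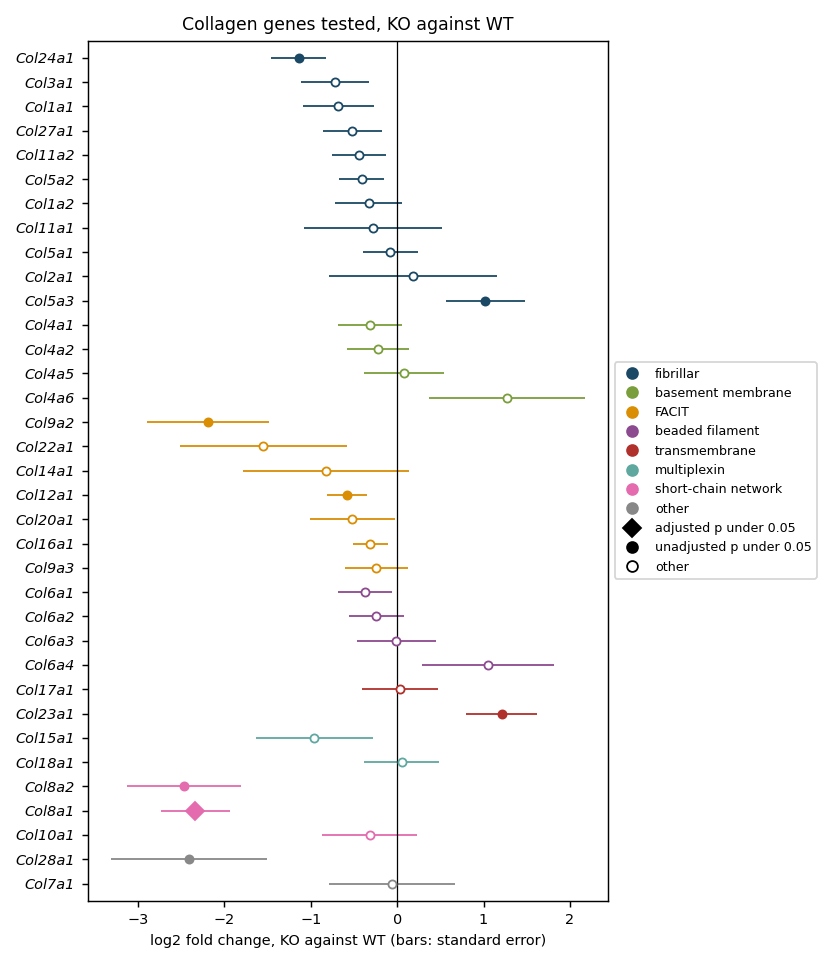
Log2 fold change of KO against WT for the 35 collagen genes tested (edgeR, bars are SEs), coloured by class. The diamond is Col8a1, the only member with an adjusted p under 0.05, filled circles are the other 7 with an unadjusted p under 0.05, and open circles are the rest; 27 of 35 points lie below 0.

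The difference between the KO effects in female-labelled and male-labelled libraries was tested for each member. None passed the edgeR threshold, where 0.0% of all 17204 genes did, and none had an unadjusted p under 0.05 (background 1.41%), with a smallest unadjusted p of 0.134 for Col23a1 over all 35 members. The effects had the same sign under both labels in 23 of the 32 members that had an effect under both, 18 lower and 5 higher. The labels are not independent, since each near-identical pair has a library under each label. Sex-linked genes also went against the label in WT male 1, KO male 1 and WT female 3. With male 1 or female 1 of both near-identical pairs dropped, and in the 12 libraries that fitted their label, 0 members passed for the difference between labels. For the fibrillar genes the median log2 fold change was −0.17 in male-labelled and −0.70 in female-labelled libraries, and for the FACIT genes it was −0.57 and −0.56.

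Partner chains were next compared within each library, where library size cancels. Col6a1 and Col6a2 kept a nearly fixed ratio: the log2 ratio of their CPM had an SD of 0.11 over the 15 libraries, while each gene alone varied with an SD of 0.69 and 0.72. Col4a1 to Col4a2 had an SD of 0.17, against 0.80 and 0.76 for the genes. The type I ratio varied more, with an SD of 0.62 for Col1a1 to Col1a2 against 0.89 and 0.82. Per kilobase, the ratio of Col1a1 to Col1a2 was 1.26 in KO male 2 and 7.31 in WT male 2, with a median of 3.12. This value depends on the length used: the annotated exons sum to 6.57 kb in Col1a1 and 12.65 kb in Col1a2, while the coding lengths are 4359 and 4116 bases, and the ratio of CPM without a length had a median of 1.62 (0.654 to 3.79).

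**Figure D5:**
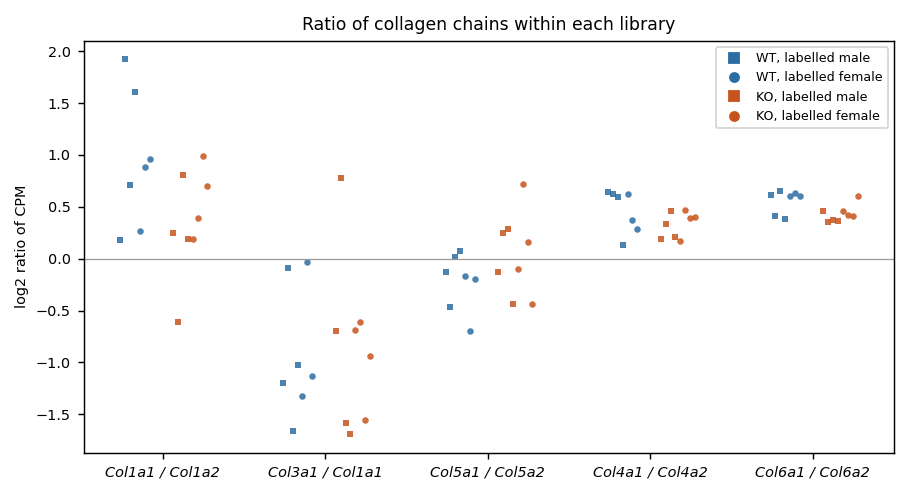
Log2 ratio of the CPM of 5 pairs of collagen chains within each library, WT in blue and KO in orange, squares for male-labelled and circles for female-labelled libraries. The points of Col4a1 / Col4a2 (0.13 to 0.64) and Col6a1 / Col6a2 (0.35 to 0.65) lie close together, and those of Col1a1 / Col1a2 range from −0.61 to 1.92.

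The genotypes were compared for 5 such ratios by an exact permutation test within the sex labels, two-sided, over 2450 permutations. The log2 ratio of Col6a1 to Col6a2 was 0.55 ± 0.11 in WT and 0.43 ± 0.08 in KO (SD, n = 7 and 8), a difference of −0.13 (exact permutation p = 0.0192, adjusted over the 5 ratios 0.096). The unadjusted p stayed between 0.00816 and 0.0543 when each library was left out in turn, and was 0.09 in the 12 libraries that fitted their sex label. Col1a1 to Col1a2 differed by −0.57 (exact permutation p = 0.0951, adjusted 0.232), at −0.95 in male-labelled and −0.13 in female-labelled libraries. Col4a1 to Col4a2 differed by −0.14 (exact permutation p = 0.139), Col5a1 to Col5a2 by 0.26 (exact permutation p = 0.186) and Col3a1 to Col1a1 by 0.05 (exact permutation p = 0.90), so that none of the 5 passed after adjustment.

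The genes that make, process and bind collagen were described from 6 lists with 64 genes in the table, of which 61 were tested. None passed the edgeR threshold in either direction (backgrounds 0.75% and 0.546%). At an unadjusted p under 0.05, 13 were lower (background 13.0%) and 3 higher (background 10.6%). DESeq2 called 8 lower (P4ha3, Mep1a, Dcn, Bgn, Itga1, Itga2, Ddr2 and Mrc2, background 6.31%) and 3 higher (P4hb, Plod3 and Lair1, background 5.28%). With voom, 7 were lower (background 4.12%) and 1 was higher (background 3.55%). The median log2 fold change was −0.28 over the 61 genes, and it was −0.80 for the 11 fibril-binding proteoglycans and glycoproteins, −0.63 for the 9 receptors and uptake genes, −0.24 for the 8 genes of propeptide removal and −0.19 for the 13 of folding and export. It was 0.01 for the 15 prolyl and lysyl modification genes and 0.20 for the 5 cross-linking genes.

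From each list the gene with the highest level per kilobase is given. Bgn, which encodes the fibril-binding proteoglycan biglycan, had 7646 ± 2076 CPM in WT and 4394 ± 1499 CPM in KO (SD, n = 7 and 8), a log2 fold change of −0.80 (SE 0.23, edgeR adjusted p = 0.0792). Sparc, a collagen-binding protein of the matrix, differed by −0.49 (SE 0.34) and Pcolce, an enhancer of procollagen cleavage, by −0.20 (SE 0.26). Itgb1, the beta chain of the collagen-binding integrins, differed by 0.16 (SE 0.17) and P4hb, a subunit of prolyl hydroxylase, by 0.37 (SE 0.14, edgeR adjusted p = 0.144). Lox, which cross-links collagen, had 6077 ± 1002 CPM in WT and 6709 ± 1846 CPM in KO (log2 fold change 0.14, SE 0.22).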

How the data were processed

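The authors deposited whole-number gene counts, 1 column for each library and 0 columns without a sample. Per the labels and the methods, reads of poly(A)-primed cDNA were trimmed with fastp 0.23.1, mapped with STAR 2.7.9a to GRCm39 with GENCODE M31, and counted with featureCounts of Subread 2.0.1 in a reverse-strand setting, though no library step that keeps strand is described. Here, the counts were scaled by TMM and tested with the quasi-likelihood test of edgeR 4.0.16 (R 4.3.3), with terms for sex label and genotype and Benjamini-Hochberg adjustment over 17204 genes. DESeq2 1.42.0 and voom (limma 3.58.1) were alternatives. CPM are TMM-scaled counts, and RPKM are CPM per kilobase of exon in GENCODE M39, a later annotation of the same build. Chain ratios (0.5 CPM added) used SciPy 1.17.1. The edgeR fit was tested on simulated counts of independent libraries. These held no near-identical pairs or wrong sex labels, so that test does not bear on such features of the data. Limits from 3 counts cover counting error only. Values are given for the 3 most abundant members of 5 classes, members past the threshold, the 5 largest changes with an unadjusted p under 0.05 and a mean of at least 1 CPM, the chains of the ratios, and the top gene of each pathway list. Other genes named (such as Col2a1, Col4a6, Col5a3, Col6a5, Col7a1, Col9a2 and Col10a1) were picked after their values were seen. Members and lists were chosen with earlier results of these data known.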

Additional observations from a re-analysis of the deposited data

Results flagged for a closer look

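In groups of 4 libraries, the highest or lowest library of each of the 22 named genes was compared with the nearest of the others by Dixon's ratio of gap to range. Of 66 such groups 3 passed the 95% critical value, and chance passes about 3.3 of 66. Col3a1 was low in KO female 4 (1212 CPM, the other 3 female-labelled KO libraries 3448 to 4180 CPM, ratio 0.845), the library that had the lowest collagen share. Col28a1 was low in KO male 4 (4.05 CPM against 10.4 to 11.5 CPM in the other male-labelled KO libraries, ratio 0.901). Col25a1 had 0.0524 CPM in KO female 1 and 0 CPM in the other female-labelled KO libraries (ratio 1.0), which rests on 1 count.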

How the results depend on the processing

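The count of collagen genes lower in KO was 1 with edgeR and 5 with DESeq2. It was 0 with the macrophage covariate, in either sex label alone, in both sets of 13 libraries and in the 12 libraries, the last 3 sets chosen after seeing the data. With each library left out it ranged from 0 (without WT female 1, WT female 2, KO male 4 or KO female 3) to 4 (without WT male 3, namely Col8a1, Col8a2, Col9a2 and Col24a1). The count of collagen genes higher in KO was 0 and became 1 with DESeq2. Pathway genes lower in KO went from 0 to 8 with DESeq2, 7 with voom, 1 with at least 10 counts in every library, 1 without the sex term, and 0 to 5 with a library left out (5 without WT male 3). Pathway genes higher in KO went from 0 to 3 with DESeq2 and 1 with voom. Of the 28 alternatives, Slc6a6 passed only with voom (−1.27, adjusted p = 0.0246). The beaded filament median was 0.53 with no filter on low counts, which adds 2 scarce genes. The transmembrane median of 0.62 became 1.18 with the stricter filter, 1.91 in female-labelled libraries and 1.31 without male 1 of both near-identical pairs (1 gene each), and 0.33 with the macrophage covariate. The Col6a1 to Col6a2 difference was −0.13 in male-labelled libraries (exact permutation p = 0.171), −0.14 in female-labelled libraries (exact permutation p = 0.0857), −0.11 in the 12 libraries, and −0.16 to −0.11 with a library left out. Over the same fits Col1a1 to Col1a2 ranged from −0.70 to −0.41, with an unadjusted exact permutation p of 0.0416 without WT male 1 and 0.0495 without WT female 1, and Col4a1 to Col4a2 ranged from −0.19 to −0.11, with 0.0278 without WT male 4. The cause of these changes was not tested. The deviations of WT and KO libraries that share a number correlated at 0.171 to 0.636 in the 4 male-labelled pairs and at 0.31, 0.098 and −0.035 in the 3 female-labelled pairs. The highest value was that of male 3. Since not every pair was above 0.1 and no label ties the numbers to a shared source, they were not taken as pairs. With the replicate block, Col8a1 was at −2.14 (edgeR adjusted p = 0.0436) and still 1 collagen gene was lower and 0 higher. The spread between libraries limits what could be called: the SE of the log2 fold change had a median of 0.43 over the members.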
